A study of Mus musculus with 55 samples.

Results

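Liver messenger RNA was compared between 8 OTC mice and 10 WT mice that had all received the control vector, 18 of the 55 libraries of the series. The OTC strain, B6EiC3Sn a/A-Otcspf-ash/J, has the Otcspf-ash allele of the X-linked gene Otc, and the WT strain is the hybrid B6EiC3SnF1/J. All 18 mice were males with a labelled age of 5 months. At 4 months all had received, by vein at week 0, a viral vector (AAV, used to bring genes into hepatocytes) encoding a scrambled hairpin RNA. Chow was replaced by a diet with 40% protein at week 2, and livers were taken at week 5. The design text gives 12 to 13 mice per vector group, and the mice without a library were not analysed here. Members were the count columns labelled with the control vector and either strain. For 1 OTC column the mouse number matched no sample title, so its group came from the column name, and it is called the unnumbered OTC mouse here. The other 37 libraries came from WT and OTC mice given a hairpin against Gls2 (10 and 10 mice) or Glud1 (9 and 8 mice), and they serve here as 2 further sets of mice in which OTC and WT can be compared. The groups are different stocks, so effects of Otc and of any other difference between the stocks cannot be told apart.

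The urea cycle turns ammonia, released when amino acids are broken down, into urea in the liver. Ornithine transcarbamylase, the product of Otc, joins carbamoyl phosphate to ornithine inside mitochondria to make citrulline, and the later steps run in the cytosol. The spf-ash allele disturbs splicing of the Otc transcript and leaves part of the normal enzyme, so that the mice are a partial model of human OTC deficiency in which a protein-rich diet raises the ammonia load. Whole liver was sequenced, so fewer cells of a type and less RNA per cell cannot be told apart in any of the values below.

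OTC libraries held 15629514 to 20717610 counts and WT libraries 16023185 to 22781052. Levels are CPM, counts scaled to the library size with TMM factors, which do not correct for gene length and are compared only between mice for the same gene. Of 10 fixed hepatocyte markers, 9 were found by symbol, and their summed level lay between 80952 and 140090 CPM over the 18 livers. In a principal component analysis the first component held 35.61% of the variance. It placed every OTC library beyond every WT library, from 0.26 for OTC mouse 38 to 79.6 for OTC mouse 3, against −35.3 to −12.3 in WT. OTC mice 3 and 67 and WT mice 7 and 13 lay farthest from the rest of their groups. Of the 153 pairs of libraries, none agreed within sampling noise (smallest chi-square per degree of freedom 20.97), so each mouse counted as 1 sample. The libraries were amplified by PCR, and the labels name no molecular identifiers, so counting error alone was not used as the error of a difference. The error given for each difference comes from 1 fit of all 55 libraries. It holds both counting error and the spread between mice around the means of all 6 groups. It is not the spread of the compared mice alone.

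Otc, the gene that carries the mutation, was low in every OTC liver. In WT livers it lay at 473 to 596 CPM (median 520.1) and in OTC livers at 43 to 79.1 CPM (median 61.5), and every OTC liver was below every WT liver. The log2 fold change, OTC minus WT, was −3.09 ± 0.09 (SE, edgeR adjusted p = 8.88e-33). The 8 OTC livers were close to each other: Otc was lowest in mouse 3 at 43 CPM and highest in mouse 43 at 79.1 CPM. Otc lies on chrX:10252305-10321024 (GRCm38, ENSMUSG00000031173.13). Of the 5 tested genes nearest to it on each side, 2 were called, against 36.3% of all tested genes. Xk, a membrane protein gene of red cells and other tissues (chrX:9272756-9313250), lay at 6.6 to 10.1 CPM (median 8.39) in WT and 2.32 to 5.46 CPM (median 4.56) in OTC (log2 fold change −1.01 ± 0.14, adjusted p = 2.14e-07 in edgeR). Atp6ap2, a subunit of the proton pump of vesicles (chrX:12587801-12617049), lay at 26.7 to 35 CPM (median 30.8) in WT and 36.6 to 56 CPM (median 44.3) in OTC (log2 fold change 0.54 ± 0.08, adjusted p = 9.88e-07 in edgeR). The ranges of both genes did not overlap between the groups, Xk being below and Atp6ap2 above WT in all 8 OTC livers. The other 8 neighbours did not pass the test.

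The other genes of the urea cycle rose or did not pass the test. Of 8 tested members of the urea cycle list, Otc alone fell, Cps1, Ass1, Asl and Arg1 rose, and Nags, Slc25a15 and Slc25a13 did not pass the test. Cps1, which makes carbamoyl phosphate in mitochondria, lay at 3939.5 to 6709.7 CPM (median 5305) in WT and 5710.3 to 12699.6 CPM (median 7265) in OTC (log2 fold change 0.58 ± 0.12, adjusted p = 0.000237 in edgeR). In 6 of 8 OTC livers Cps1 was above every WT liver. It was at 10499.6 CPM in mouse 3, 12699.6 CPM in mouse 67 and 5710 to 8671 CPM in the other 6. Without mice 3 and 67 its log2 fold change was 0.34 (edgeR adjusted p = 0.0223). Asl, argininosuccinate lyase, lay at 289.6 to 541 CPM (median 429) in WT and 448 to 2147 CPM (median 667) in OTC (log2 fold change 1.26 ± 0.23, adjusted p = 1.71e-05 in edgeR). Arg1, arginase, which releases urea, lay at 771 to 1469 CPM (median 1257) in WT and 1025 to 3556 CPM (median 1643) in OTC (log2 fold change 0.70 ± 0.15, adjusted p = 0.000288 in edgeR). For Asl and Arg1, too, 6 of 8 OTC livers were above the WT range, and mice 3 and 67 stood far above the other OTC mice: Asl was at 2147 and 1919 CPM in these, and at 448 to 884 CPM in the other 6. Without mice 3 and 67 the log2 fold change of Asl was 0.62 (edgeR adjusted p = 0.00986), and that of Arg1 was 0.34 and not called (adjusted p = 0.0515). Ass1, argininosuccinate synthase, lay at 3145 to 5414 CPM (median 4605) in WT and 4489 to 10058 CPM (median 4797) in OTC (log2 fold change 0.42 ± 0.13, adjusted p = 0.00853 in edgeR), and 6 of 8 OTC livers were inside the WT range. Its call was lost without mouse 3 (0.25, adjusted p = 0.101) and without mice 3 and 67 (0.11, adjusted p = 0.477), and with only the 18 compared libraries the adjusted p was 0.0805. Nags, which makes the activator of Cps1, lay at 48.8 to 61 CPM (median 54.8) in WT and 43.9 to 79.2 CPM (median 55.3) in OTC, and the ornithine carrier Slc25a15 at 284 to 396 CPM (median 358) and 246 to 622 CPM (median 296). For Slc25a15, 4 of 8 OTC livers were below every WT liver, and without mice 3 and 67 its log2 fold change went from −0.05 to −0.34 (edgeR adjusted p = 0.0544). Slc25a13, the aspartate and glutamate carrier, lay at 185 to 263 CPM (median 238) in WT and 179 to 319 CPM (median 211) in OTC.

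**Figure D1:**
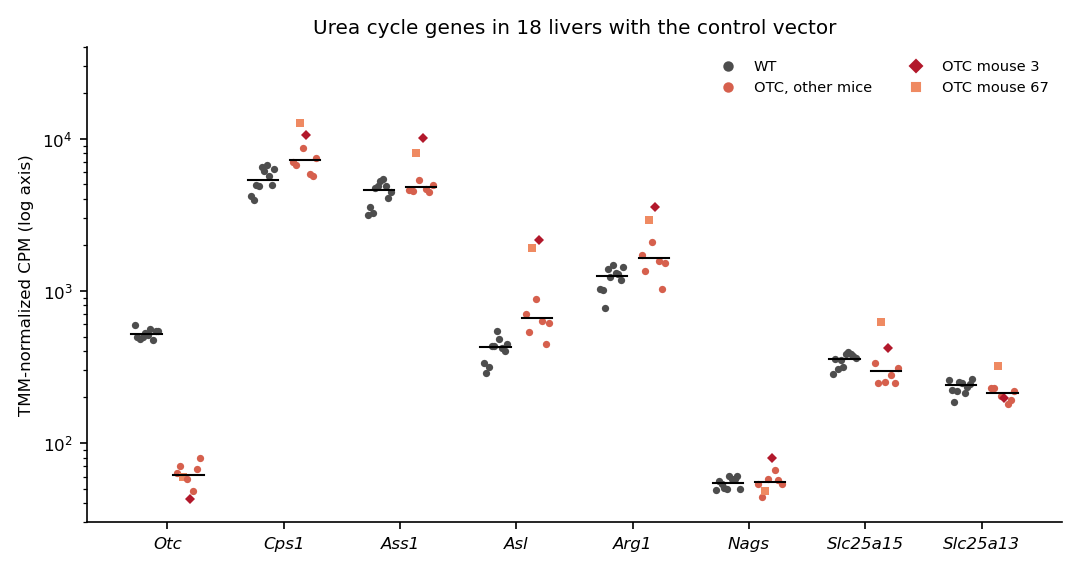
Level of 8 urea cycle genes (y axis, TMM-normalized CPM on a log scale) in each of 10 WT and 8 OTC livers with the control vector; each point is a mouse, black bars are group medians, and OTC mice 3 and 67 have their own symbols. All 8 OTC livers lie at or below 79.1 CPM for Otc, while mice 3 and 67 are the highest points for Cps1, Ass1, Asl and Arg1.

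Over all 13311 tested genes, 4830 were called between the stocks (36.3%), with 2650 higher in OTC (19.9%) and 2180 lower (16.4%) in edgeR. Most differences were small: 303 genes were called and at least 2-fold higher (2.28%), and 293 were called and at least 2-fold lower (2.2%). The median log2 fold change of all tested genes was 0.02. On the TPM scale, with limma on log2(TPM + 1), the median moved to 0.10 and the split to 3882 higher and 1129 lower; medians of small size below are read against this shift. Without OTC mice 3 and 67, 1673 of the 2650 higher genes and 1695 of the 2180 lower genes were called in the same direction (63.1% and 77.8%). With only the 18 compared libraries in the fit, 1878 of the 2650 and 1699 of the 2180 were (70.9% and 77.9%). The plot of fold change against level shows the called genes in both directions.

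**Figure D2:**
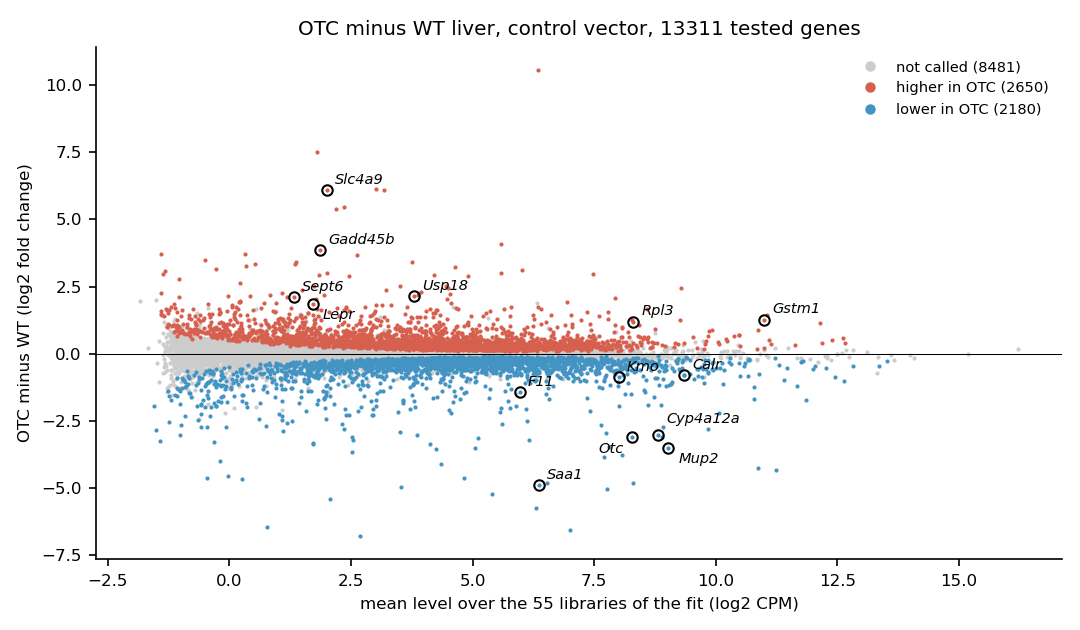
Log2 fold change, OTC minus WT with the control vector (y axis), against the mean level over the 55 libraries of the fit (x axis, log2 CPM) for 13311 tested genes; red points are the 2650 genes called higher, blue points the 2180 called lower, and circles mark genes named in the text. Slc4a9 and Gadd45b are among the highest points, and Saa1, Mup2 and Otc among the low ones.

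For 200 genes every OTC liver was above every WT liver (1.5% of those tested), and for 254 genes every OTC liver was below (1.91%). All 454 were called, 364 of them in the same direction in all 3 vector groups. Genes with a mean under 1 log2 CPM and predicted or accession-like symbols were left out of the ranking here and at the low end. The highest fold change left in this class was that of Slc4a9, an anion transporter. It lay at 0 to 0.471 CPM (median 0.129) in WT and 1.04 to 46.3 CPM (median 6.46) in OTC (log2 fold change 6.11 ± 0.63, adjusted p = 3.2e-10 in edgeR), or 5.51 without mouse 3. Gadd45b, a growth-arrest gene of the stress response, lay at 0.179 to 0.689 CPM (median 0.405) in WT and 1.03 to 17.1 CPM (median 4.72) in OTC (log2 fold change 3.87 ± 0.45, adjusted p = 3.9e-09 in edgeR), or 3.09 without mice 3 and 67. Both genes varied widely among OTC mice, Gadd45b being at 1.03 CPM in mouse 72 and 17.1 CPM in mouse 3. Next came Gria3, a glutamate receptor subunit (0.547 CPM at the WT median and 3.27 at the OTC median, log2 fold change 2.92), and Tuba8, a tubulin (0.685 and 4.48 CPM, 2.89). Smoc2, a secreted matrix protein, lay at 1.99 to 4.51 CPM (median 2.59) in WT and 6.34 to 18.3 CPM (median 12.4) in OTC (log2 fold change 2.20 ± 0.23, adjusted p = 3.2e-10 in edgeR). Sept6, a septin of the cytoskeleton that lies on chromosome X, lay at 0.673 to 1.65 CPM (median 1.24) in WT and 3.5 to 6.7 CPM (median 4.99) in OTC (log2 fold change 2.11 ± 0.21, adjusted p = 9.71e-11 in edgeR). These last 2 genes were raised to a like degree in all OTC mice, the highest being less than 3 times the lowest. Ranbp3l, a partner of the nuclear transport factor Ran, was at a median of 1.22 CPM in WT and 5.27 in OTC (2.19). Lepr, the leptin receptor, was at 1.88 and 3.85 CPM at the medians (1.83, or 0.91 without mice 3 and 67, where it was at 19.1 and 14.1 CPM).

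At the low end of this class were genes of several kinds. Saa1 and Saa2 code for serum amyloid A, an apolipoprotein of the acute phase. Saa1 lay at 26.7 to 904 CPM (median 121) in WT and 2 to 12.7 CPM (median 6.67) in OTC (log2 fold change −4.91 ± 0.65, adjusted p = 6.25e-08 in edgeR), and WT mouse 7 was the highest WT liver. Without WT mouse 7 the log2 fold change was −4.21 for Saa1, and for Saa2 it went from −5.23 to −3.83. Mup10 and Mup2 code for major urinary proteins, carriers of scent molecules. Mup10 lay at 133 to 645 CPM (median 489) in WT and 0 to 30.8 CPM (median 13.8) in OTC (log2 fold change −5.03 ± 0.88, adjusted p = 1.3e-05 in edgeR). Mup2 lay at 392 to 2137 CPM (median 1089.6) in WT and 2.43 to 351 CPM (median 53.1) in OTC (log2 fold change −3.52 ± 0.80, adjusted p = 0.000499 in edgeR), or −4.27 without OTC mouse 38, the liver with the most Mup2 among OTC mice. These families have near-identical copies that can share reads, so single members are uncertain. Slc22a7, an organic anion transporter, lay at 5.77 to 28.9 CPM (median 16.7) in WT and 0.108 to 2.14 CPM (median 0.788) in OTC (log2 fold change −4.12 ± 0.44, adjusted p = 4.34e-10 in edgeR). Dct, dopachrome tautomerase of melanin synthesis, lay at 1.52 to 9.96 CPM (median 6.59) in WT and 0.0449 to 1.25 CPM (median 0.629) in OTC (log2 fold change −3.32 ± 0.39, adjusted p = 4.51e-09 in edgeR). The others were Orm2, an acid glycoprotein of plasma (−3.16), Sema5b, a semaphorin (−3.38), and the pseudogenes Serpina4-ps1 (−4.98) and Adh6-ps1 (−3.36). By autosome, the share of called genes ran from 33.05% to 40.84%, with 34.64% on X, and the share with ranges that did not overlap from 1.581% to 4.988%, with 4.688% on X.

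Chaperones and folding enzymes of the endoplasmic reticulum, where secreted proteins mature, were lower in OTC. Of 23 tested members of this list, 21 fell, 1 rose and 1 did not pass the test, with a median log2 fold change of −0.57 against 0.02 over all genes. Promoters of 19 of the 23 are in the RefSeq table (GRCm38.p6), which holds 250 bases before and 50 after each start. The motif known as ERSE, searched on both strands as CCAAT and CCACG with any 9 bases between them, was in 8 of the 19 (42.1%) and in 0.137% of all 27025 genes with a promoter in the table. The genes that hold it are Hspa5, Calr, Hsp90b1, Canx, Pdia6, Dnajc3, Creld2 and Syvn1. All 8 fell, but so did 18 of the 19 members with a promoter. With 1 other member to compare, whether the motif goes with the fall was not tested. Of these, 4 are shown with their flanks so that the shared letters can be seen, with the fixed letters of the motif in capitals. All are printed 5′ to 3′ on the strand of the gene, and those of Calr and Creld2 hold the reverse complement. Hsp90b1 has a second match outside the stretch shown.
Hspa5: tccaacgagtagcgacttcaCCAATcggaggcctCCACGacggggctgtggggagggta
Hsp90b1: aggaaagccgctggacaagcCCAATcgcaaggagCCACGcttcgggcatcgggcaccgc
Calr: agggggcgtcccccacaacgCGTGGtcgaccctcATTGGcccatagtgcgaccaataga
Creld2: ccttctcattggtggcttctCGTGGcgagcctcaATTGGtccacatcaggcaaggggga
They lie at chr2:34772005-34772063, plus strand (Hspa5), chr10:86705618-86705676, minus strand (Hsp90b1), chr8:84847055-84847113, minus strand (Calr) and chr15:88819500-88819558, plus strand (Creld2). These genes other than Calr were named after their values were seen, because they hold the motif.

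Calr, a chaperone that binds calcium and sugar chains, lay at 561 to 1148 CPM (median 757) in WT and 367 to 519.8 CPM (median 442) in OTC (log2 fold change −0.80 ± 0.12, adjusted p = 1.38e-06 in edgeR). Every OTC liver was below every WT liver. Pdia3, a disulfide isomerase that works with Calr, lay at 368 to 743 CPM (median 454) in WT and 246 to 371 CPM (median 312) in OTC (log2 fold change −0.61 ± 0.11, adjusted p = 1.67e-05 in edgeR), and 7 of 8 OTC livers were below the WT range. Hspa5, the main chaperone of the compartment and sensor partner of its stress response, lay at 593 to 2275 CPM (median 759) in WT and 398 to 733 CPM (median 482) in OTC (log2 fold change −0.76 ± 0.21, adjusted p = 0.00411 in edgeR). Hsp90b1, its HSP90 form, lay at 707 to 1856 CPM (median 839.9) in WT and 532 to 749.5 CPM (median 609.7) in OTC (log2 fold change −0.57 ± 0.13, adjusted p = 0.000468 in edgeR). The top of the WT range was a single mouse in both: WT mouse 7 held 2275 CPM of Hspa5, and the other 9 WT livers held 593 to 967 CPM. The summed level of the list was 12296 CPM in WT mouse 7, 5429 to 7262 CPM in the other 9 WT livers and 4376 to 5599 CPM in OTC. Without WT mouse 7, 17 of the 23 genes fell and none rose, with a median of −0.43. Creld2, a folding factor, lay at 13.6 to 135 CPM (median 22) in WT and 10.1 to 22.4 CPM (median 11.5) in OTC (log2 fold change −1.22 ± 0.36, adjusted p = 0.00638 in edgeR), and its call was lost without WT mouse 7 (−0.61, adjusted p = 0.0979). Of 18 cytosolic and mitochondrial heat shock proteins, 7 fell and 1 rose (44.44% called, against 36.3% of all tested genes), or 4 and 1 on the TPM scale. The mitochondrial chaperone Hspd1 lay at 403 to 503 CPM (median 437) in WT and 319.7 to 425 CPM (median 361) in OTC (log2 fold change −0.26 ± 0.05, adjusted p = 6.88e-05 in edgeR). Hspa8, the constitutive cytosolic HSP70, was the one that rose, from 305 to 1067 CPM (median 741) in WT to 891 to 1814 CPM (median 1173) in OTC (log2 fold change 0.86 ± 0.15, adjusted p = 1.59e-05 in edgeR).

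Interferon-stimulated genes, which cells switch on in response to interferon, were higher in OTC. Of 40 tested members, 30 rose, none fell and 10 did not pass the test, with a median log2 fold change of 0.54. The motif known as ISRE, searched on both strands as GAAA and GAAA with any 2 bases between them, was in 15 of the 29 members with a promoter in the RefSeq table (51.7%) and in 3.99% of all 27025 genes. It was in 11 of the 21 members that rose and in 4 of the 8 that did not pass the test. Promoter stretches of 3 members that rose are shown with 1 match each in capitals, that of Isg15 on the strand of the gene and those of Ifit1 and Rsad2 as the reverse complement. Isg15 holds 3 overlapping matches and Ifit1 2 separate ones, all within the stretches shown, and the first of each is in capitals.
Isg15: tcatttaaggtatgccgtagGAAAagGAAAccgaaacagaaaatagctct
Ifit1: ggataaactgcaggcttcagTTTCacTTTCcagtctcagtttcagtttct
Rsad2: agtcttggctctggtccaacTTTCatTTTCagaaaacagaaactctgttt
They lie at chr4:156200867-156200916, minus strand (Isg15), chr19:34640765-34640814, plus strand (Ifit1) and chr12:26456543-26456592, minus strand (Rsad2), all GRCm38.p6 from RefSeq. Isg15 and Rsad2 were named after their values were seen, because they hold the motif.

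Usp18, which removes the ubiquitin-like ISG15 tag and dampens interferon signalling, lay at 2.05 to 5.02 CPM (median 3.87) in WT and 12.7 to 28.3 CPM (median 15.2) in OTC (log2 fold change 2.14 ± 0.23, adjusted p = 3.85e-10 in edgeR). Irf7, which turns on interferon genes, lay at 11.8 to 25.2 CPM (median 15.6) in WT and 34.3 to 70.6 CPM (median 56.3) in OTC (log2 fold change 1.75 ± 0.20, adjusted p = 3.06e-09 in edgeR). For both genes every OTC liver was above every WT liver. Ifit1, which binds foreign RNA, lay at 4.56 to 12.6 CPM (median 6.79) in WT and 9.51 to 36.1 CPM (median 21.8) in OTC (log2 fold change 1.61 ± 0.23, adjusted p = 5.25e-07 in edgeR). Rsad2, the antiviral enzyme viperin, lay at 7.58 to 17.8 CPM (median 9.94) in WT and 12.8 to 33.6 CPM (median 23.7) in OTC (log2 fold change 1.02 ± 0.21, adjusted p = 0.000178 in edgeR). Isg15, the ubiquitin-like tag itself, lay at 3.92 to 10.5 CPM (median 6.09) in WT and 3.3 to 19 CPM (median 12.1) in OTC (log2 fold change 0.92 ± 0.26, adjusted p = 0.00358 in edgeR). Mouse 3 was the lowest OTC liver for Isg15 at 3.3 CPM, below every WT liver, while the other OTC livers held 8.21 to 19 CPM. The summed level of the list was 630 CPM in mouse 3, 968 CPM in mouse 67 and 1089 to 1309.6 CPM in the other 6, against 575 to 883 CPM in WT. Without mice 3 and 67, 33 of the 40 members rose. Of 18 interferon-inducible GTPases, which interferon gamma also drives, 3 rose and 1 fell (22.22%, against 36.3% of all tested genes). Between 1 and 4 rose when each mouse was left out in turn. Gbp3, one of these GTPases, lay at 3.44 to 6.22 CPM (median 4.79) in WT and 3.84 to 15 CPM (median 11.8) in OTC (log2 fold change 1.17 ± 0.26, adjusted p = 0.000336 in edgeR). In the class I antigen presentation list 5 of 17 rose and 2 fell (41.18%). Nlrc5, the activator of class I genes, rose from 16.4 to 22.1 CPM (median 19.5) in WT to 21.6 to 31.6 CPM (median 27.5) in OTC (log2 fold change 0.47 ± 0.11, adjusted p = 0.000776 in edgeR), while B2m, the light chain of class I molecules, fell from 1015 to 1219.6 CPM (median 1138) to 724 to 993 CPM (median 920.5) (log2 fold change −0.35 ± 0.06, adjusted p = 2.34e-05), with no overlap between the groups. Of 9 class II genes 1 was called (11.11%).

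Enzymes that break down amino acids, the source of the ammonia, differed by pathway. In the list for branched-chain amino acids and lysine 14 of 20 fell and none rose, with a median of −0.32 (−0.16 on the TPM scale), and 13 of the 14 were called lower in all 3 vector groups. Acadsb, a dehydrogenase of isoleucine breakdown, lay at 161 to 207 CPM (median 187) in WT and 105 to 139 CPM (median 135) in OTC (log2 fold change −0.53 ± 0.06, adjusted p = 9.06e-09 in edgeR). Ivd, the dehydrogenase of leucine breakdown, lay at 143 to 215 CPM (median 173) in WT and 104 to 141 CPM (median 113) in OTC (log2 fold change −0.58 ± 0.07, adjusted p = 4.16e-08 in edgeR). Neither gene had overlapping groups. Pcca, a subunit of propionyl-CoA carboxylase at the end of these pathways, lay at 64.9 to 95.6 CPM (median 87.1) in WT and 46.5 to 71.8 CPM (median 58.9) in OTC (log2 fold change −0.52 ± 0.07, adjusted p = 8.6e-08 in edgeR). Of 12 genes of histidine and proline breakdown 2 rose and 2 fell (33.33% called, against 36.3% of all tested genes). For serine, glycine and threonine 7 of 15 fell and 3 rose. Shmt2, the mitochondrial enzyme that interconverts serine and glycine, lay at 145 to 213 CPM (median 193) in WT and 81.8 to 138 CPM (median 130.4) in OTC (log2 fold change −0.60 ± 0.08, adjusted p = 5.97e-08 in edgeR). Srr, serine racemase, lay at 95.6 to 144 CPM (median 135) in WT and 48.3 to 95.1 CPM (median 89.6) in OTC (log2 fold change −0.65 ± 0.09, adjusted p = 2.31e-07 in edgeR). Both were below WT in all 8 OTC livers, and mouse 3 was the lowest for both. For tryptophan, tyrosine and phenylalanine 5 of 16 fell and 2 rose (43.75% called), or 6 and 0 without mice 3 and 67. The median of −0.08 became 0.03 on the TPM scale. Kmo and Haao, enzymes of the kynurenine route of tryptophan breakdown, both fell. Kmo lay at 282 to 387 CPM (median 317) in WT and 147 to 249 CPM (median 165) in OTC (log2 fold change −0.86 ± 0.10, adjusted p = 1.6e-09 in edgeR), with no overlap, and Haao at 282 to 430.2 CPM (median 372) and 195 to 321 CPM (median 284) (log2 fold change −0.43 ± 0.08, adjusted p = 5.28e-05). Oat, ornithine aminotransferase, which can use up the ornithine that Otc also consumes, lay at 469 to 1292 CPM (median 999) in WT and 286 to 976 CPM (median 485) in OTC (log2 fold change −0.85 ± 0.22, adjusted p = 0.00183 in edgeR), and 4 of 8 OTC livers were below every WT liver.

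Of 14 sulfur amino acid genes 4 were higher and 2 lower (42.86% called, against 36.3% of all tested genes). Bhmt, which remakes methionine from homocysteine with betaine, lay at 2722 to 6018 CPM (median 4267) in WT and 947 to 3935 CPM (median 1574) in OTC (log2 fold change −1.20 ± 0.23, adjusted p = 5.27e-05 in edgeR), and 7 of 8 OTC livers were below every WT liver. Mat1a, which makes S-adenosylmethionine in the adult liver, lay at 1557 to 3968 CPM (median 3191) in WT and 3128 to 15158 CPM (median 4705) in OTC (log2 fold change 1.14 ± 0.22, adjusted p = 6.47e-05 in edgeR). It reached 15158 CPM in mouse 3 and 12568 CPM in mouse 67 and lay at 3128 to 5713 CPM in the other 6, and without these 2 mice the log2 fold change was 0.50 (adjusted p = 0.0337). Of 17 genes for release and scavenging of ammonia 5 rose and 3 fell (47.06%), or 2 and 5 without mice 3 and 67. Rhbg, an ammonia channel, lay at 4.2 to 10.7 CPM (median 5.26) in WT and 0.892 to 2.14 CPM (median 1.2) in OTC (log2 fold change −2.15 ± 0.20, adjusted p = 2.05e-11 in edgeR), every OTC liver being below every WT liver. Car2, a carbonic anhydrase, lay at 1.25 to 3.64 CPM (median 1.9) in WT and 3.4 to 5.53 CPM (median 3.9) in OTC (log2 fold change 0.88 ± 0.16, adjusted p = 3.13e-05 in edgeR). Got1, the cytosolic aspartate aminotransferase, lay at 162 to 314 CPM (median 267) in WT and 235 to 2564 CPM (median 374) in OTC (log2 fold change 1.66 ± 0.33, adjusted p = 8.75e-05 in edgeR). Mice 3 and 67 held the highest levels of Got1, at 2564 and 1619 CPM, and without them the log2 fold change was 0.49 and not called (adjusted p = 0.151). Amino acid transporters rose in 7 and fell in 3 of 22 cases (45.45%). Slc38a2, a carrier of neutral amino acids, lay at 68.1 to 124 CPM (median 99.7) in WT and 114 to 257 CPM (median 153) in OTC (log2 fold change 0.79 ± 0.16, adjusted p = 7.78e-05 in edgeR). Slc6a9, a glycine carrier, lay at 12.6 to 23.4 CPM (median 19.4) in WT and 13.1 to 44.3 CPM (median 37.8) in OTC (log2 fold change 0.80 ± 0.15, adjusted p = 4.06e-05 in edgeR), and mouse 67 was its lowest OTC liver. Among 18 targets of ATF4, the transcription factor of amino acid shortage, 7 rose and 1 fell (44.44%), or 4 and 1 without mice 3 and 67. They included Cebpg (0.29), Ppp1r15a, which restarts translation after stress (0.44), and Atf3, at 0.467 to 1.12 CPM (median 0.622) in WT and 0.515 to 2.18 CPM (median 1.25) in OTC (1.03). Of 20 aminoacyl tRNA synthetases 3 rose and 4 fell (35%), or 5 and 1 on the TPM scale. The threonine enzyme Tars lay at 128 to 312 CPM (median 178) in WT and 76.4 to 161 CPM (median 118) in OTC (log2 fold change −0.61 ± 0.13, adjusted p = 0.000196 in edgeR).

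**Figure D3:**
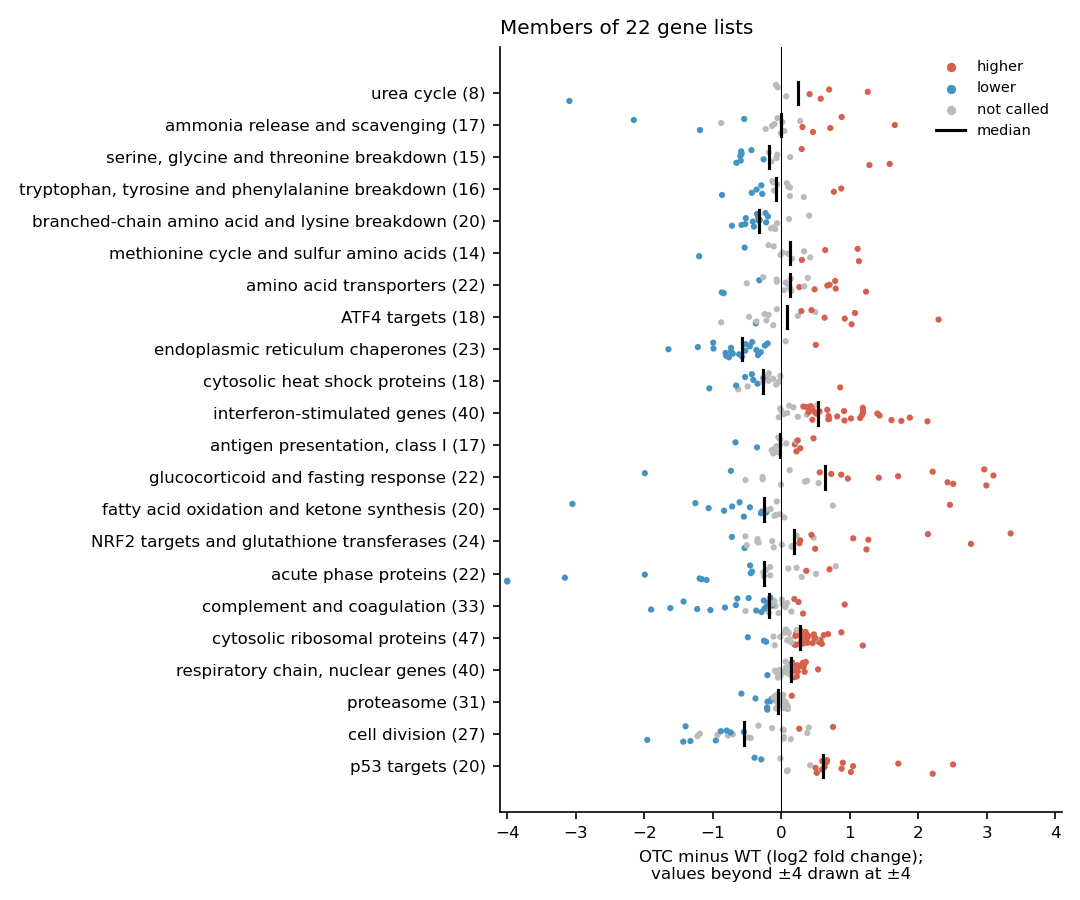
Log2 fold change, OTC minus WT with the control vector (x axis), of each tested member of 22 gene lists (rows, number of tested members in brackets); red points were called higher, blue lower and grey not called, and black bars are medians. Most points of the endoplasmic reticulum chaperone row lie left of 0 and most of the interferon-stimulated row right of 0; 2 values beyond −4 or 4 are drawn at the edge.

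Plasma proteins made by the liver were lower more often than higher. Of 33 genes of complement and coagulation 17 fell and 4 rose, with a median of −0.18 (11 and 8 on the TPM scale). F11, coagulation factor XI, lay at 64.7 to 127 CPM (median 98.2) in WT and 25.8 to 43.6 CPM (median 37.5) in OTC (log2 fold change −1.43 ± 0.13, adjusted p = 1.69e-11 in edgeR). Serping1, the C1 inhibitor, lay at 642 to 803 CPM (median 737) in WT and 347 to 588 CPM (median 482) in OTC (log2 fold change −0.64 ± 0.09, adjusted p = 1.1e-07 in edgeR). All 8 OTC livers were below all 10 WT livers for both of these genes. Of 22 acute phase proteins 10 fell and 2 rose. The summed level of this list was 51895 CPM in WT mouse 7 and 20579 to 23796 CPM in the other 9 WT livers, and without WT mouse 7 it had 5 members lower and 5 higher. With only the compared groups 5 were lower and 1 higher, and on the TPM scale 6 and 4. Saa4, the constitutive serum amyloid A, lay at 263 to 549 CPM (median 289) in WT and 57.4 to 176 CPM (median 157) in OTC (log2 fold change −1.16 ± 0.16, adjusted p = 1.46e-07 in edgeR), with mouse 3 lowest.

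Cytosolic ribosomal protein genes and nuclear genes of the respiratory chain were higher more often than lower. Of 47 cytosolic ribosomal protein genes 30 rose and 3 fell, with a median of 0.27, and 8 had every OTC liver above every WT liver. Without OTC mice 3 and 67, 20 rose and 5 fell, with a median of 0.15. Rpl3 lay at 185 to 255 CPM (median 226) in WT and 379.7 to 714 CPM (median 499.9) in OTC (log2 fold change 1.19 ± 0.09, adjusted p = 3.04e-15 in edgeR), and Rps18 at 120.2 to 167 CPM (median 139) and 176 to 425 CPM (median 234) (log2 fold change 0.88 ± 0.11, adjusted p = 3.89e-08). Both were above WT in all 8 OTC livers. Ribosomal protein genes have processed copies elsewhere in the genome, so reads may be shared. Of 40 nuclear genes of the respiratory chain 19 rose and 1 fell, or 8 and 3 without mice 3 and 67, 10 and 0 with only the compared groups, and 32 and 0 on the TPM scale. Sdhd, a subunit of succinate dehydrogenase, lay at 119.9 to 190.2 CPM (median 164) in WT and 205 to 286 CPM (median 229) in OTC (log2 fold change 0.54 ± 0.07, adjusted p = 1.27e-07 in edgeR), with no overlap. Atp5b, the catalytic subunit of ATP synthase, lay at 841 to 1072 CPM (median 959) in WT and 1051 to 1504 CPM (median 1177) in OTC (log2 fold change 0.34 ± 0.06, adjusted p = 5.64e-06 in edgeR). The 13 protein genes of mitochondrial DNA included 3 that fell and none that rose (6 and 0 without mice 3 and 67), with a median of −0.05 that was 0.04 on the TPM scale. CYTB, cytochrome b, lay at 10628 to 13761 CPM (median 12069.5) in WT and 5479.98 to 13368 CPM (median 8125) in OTC (log2 fold change −0.45 ± 0.10, adjusted p = 0.000551 in edgeR). These 13 genes made up 10.32% to 12.56% of counts in WT and 9.431% to 14.2% in OTC. Of the 31 proteasome genes 7 were lower and 1 higher (25.81%, against 36.3% of all tested genes), with a median of −0.05. On the TPM scale the balance turned, with 2 lower, 10 higher and a median of 0.05. Psmd14, a deubiquitinase of the lid, lay at 49.7 to 62.2 CPM (median 52.9) in WT and 30.4 to 39.1 CPM (median 37.6) in OTC (log2 fold change −0.58 ± 0.07, adjusted p = 3.92e-09 in edgeR), and Psmd2, a base subunit, at 154 to 183 CPM (median 172) and 119 to 140.4 CPM (median 131) (log2 fold change −0.38 ± 0.05, adjusted p = 4.16e-08). Neither had overlapping groups.

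Genes of the response to glucocorticoids and fasting were uneven among OTC mice. Of 22 tested genes 12 rose and 2 fell, with a median of 0.65. Without mice 3 and 67, 7 rose and 3 fell, with a median of 0.12, and without WT mouse 7, 15 rose and 1 fell, with a median of 0.91. The summed level of the list was 19674 CPM in mouse 3 and 15610.0 CPM in mouse 67, 3150.3 to 6213 CPM in the other 6 OTC livers and 3105 to 5244 CPM in WT. Fkbp5, a chaperone partner of the glucocorticoid receptor, lay at 7.45 to 18.9 CPM (median 15.6) in WT and 14.2 to 435 CPM (median 47.9) in OTC (log2 fold change 2.99 ± 0.41, adjusted p = 1.46e-07 in edgeR). It was at 435 CPM in mouse 3, 222 CPM in mouse 67 and 14.2 CPM in mouse 38, inside the WT range. The log2 fold change was 2.22 without mouse 3 and 1.52 without mice 3 and 67. Zbtb16, a transcription factor, lay at 4.65 to 11.9 CPM (median 7.61) in WT and 13.3 to 101 CPM (median 27.8) in OTC (log2 fold change 2.43 ± 0.36, adjusted p = 5.71e-07 in edgeR), or 1.53 without mice 3 and 67. All 8 OTC livers were above the WT range for Zbtb16, mice 67 and 3 by far the most. Of 20 clock genes 5 rose and 3 fell (40% called, against 36.3% of all tested genes). Per1, a repressor of the clock, lay at 1.44 to 14.1 CPM (median 6.08) in WT and 4.91 to 106 CPM (median 22.5) in OTC (log2 fold change 2.51 ± 0.49, adjusted p = 6.85e-05 in edgeR), or 1.73 without mice 3 and 67. Ciart, another repressor, lay at 0.125 to 2.33 CPM (median 0.693) in WT and 0.418 to 26 CPM (median 6.01) in OTC (log2 fold change 3.68 ± 0.68, adjusted p = 2.82e-05 in edgeR), or 2.71 without mice 3 and 67. Dbp, a main output gene of the clock, did not pass the test and spread from 0.125 to 72.6 CPM among WT livers and from 4.34 to 108 CPM among OTC livers. The labels used here give no time of day for the collection.

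Counts in the lipid and bile acid lists are read against all tested genes, of which 19.9% were called higher and 16.4% lower. Of 20 genes of fatty acid oxidation and ketone synthesis 11 fell and 1 rose (11 and 1 also without mice 3 and 67). Cpt2, the inner membrane enzyme of the carnitine shuttle, lay at 108 to 146 CPM (median 130.1) in WT and 51.8 to 111 CPM (median 91.6) in OTC (log2 fold change −0.54 ± 0.10, adjusted p = 1.89e-05 in edgeR). Of 20 genes of insulin-regulated glycolysis and lipogenesis 2 rose and 2 fell, or 6 fell without OTC mouse 72. Elovl5, which lengthens polyunsaturated fatty acids, lay at 433 to 1424 CPM (median 765) in WT and 79.5 to 593 CPM (median 343) in OTC (log2 fold change −1.16 ± 0.26, adjusted p = 0.000485 in edgeR). Of 24 genes of cholesterol synthesis 2 fell, and without mice 3 and 67 none fell and 2 rose. Bile acid genes were lower in 7 and higher in 4 of 20, with 2 higher without OTC mouse 67, 1 with only the compared groups and 7 on the TPM scale. Hsd3b7, which remodels the sterol ring, lay at 359 to 506 CPM (median 449) in WT and 89 to 363 CPM (median 268) in OTC (log2 fold change −0.83 ± 0.15, adjusted p = 2.24e-05 in edgeR), with 7 of 8 OTC livers below the WT range. Cyp27a1, which starts the acidic pathway, lay at 295 to 468 CPM (median 354) in WT and 399.6 to 631 CPM (median 475) in OTC (log2 fold change 0.43 ± 0.09, adjusted p = 0.000169 in edgeR).

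Among 32 cytochrome P450 genes of families 2 and 3, 11 fell and 9 rose, and only 4 rose without OTC mouse 35 and 5 without the unnumbered OTC mouse or without WT mouse 7. Cyp2j5, an epoxygenase of liver and kidney, lay at 667 to 907 CPM (median 806) in WT and 156 to 488 CPM (median 379) in OTC (log2 fold change −1.14 ± 0.14, adjusted p = 6.77e-09 in edgeR), every OTC liver being below every WT liver. Cyp2c29 lay at 1597 to 2687 CPM (median 2137) in WT and 942 to 1655 CPM (median 1208) in OTC (log2 fold change −0.82 ± 0.14, adjusted p = 1.31e-05 in edgeR), and Cyp2d22 rose from 154 to 234 CPM (median 200.2) to 215 to 398 CPM (median 267) (log2 fold change 0.51 ± 0.08, adjusted p = 3.16e-06). Of 24 targets of the oxidant sensor NRF2 and glutathione transferases 10 rose and 2 fell, or 6 rose without OTC mouse 35 and likewise with only the compared groups. Gstm1, a glutathione transferase, lay at 652 to 1526 CPM (median 1089) in WT and 1458 to 5387 CPM (median 2188) in OTC (log2 fold change 1.27 ± 0.18, adjusted p = 4.75e-07 in edgeR). Here mice 3 and 67 were the lowest OTC livers, at 1458 and 1638 CPM, and mouse 35 the highest. Nqo1, a quinone reductase, lay at 2.13 to 10 CPM (median 4.41) in WT and 4.79 to 24.2 CPM (median 11.5) in OTC (log2 fold change 1.24 ± 0.24, adjusted p = 7.29e-05 in edgeR), and Akr1b7, an aldo-keto reductase, at 0.0471 to 1 CPM (median 0.112) and 0.679 to 5.94 CPM (median 1.73) (log2 fold change 3.35 ± 0.53, adjusted p = 2.3e-06). The cytochrome P450 and transferase families have close copies that can share reads.

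Targets of p53, the transcription factor of DNA damage and growth arrest, rose in 14 and fell in 2 of 20 cases, with a median of 0.62 (11 and 2 without mice 3 and 67). Bax, which permeabilises mitochondria, lay at 10.2 to 15.2 CPM (median 11.8) in WT and 17.1 to 37 CPM (median 22.8) in OTC (log2 fold change 1.02 ± 0.12, adjusted p = 1.84e-09 in edgeR), with no overlap. Phlda3, an inhibitor of Akt, lay at 0.385 to 2.02 CPM (median 0.529) in WT and 0.737 to 10.6 CPM (median 4.09) in OTC (log2 fold change 2.51 ± 0.47, adjusted p = 3.21e-05 in edgeR). Trp53inp1 lay at 58 to 103 CPM (median 66.8) in WT and 70.2 to 254 CPM (median 142) in OTC (log2 fold change 1.05 ± 0.20, adjusted p = 4.99e-05 in edgeR). Of 27 genes of cell division 9 fell and 2 rose (40.74% called, against 36.3% of all tested genes), with a median of −0.54. On the TPM scale 13 were tested, 3 fell and 2 rose, with a median of −0.02. E2f1, a transcription factor of entry into S phase, lay at 1.93 to 3.69 CPM (median 3.06) in WT and 0.324 to 1.77 CPM (median 1.19) in OTC (log2 fold change −1.40 ± 0.18, adjusted p = 6e-08 in edgeR), with no overlap. Pcna, the clamp of DNA polymerase and also a p53 target, rose from 17.6 to 20.5 CPM (median 18.7) to 20.7 to 27.5 CPM (median 22.4) (log2 fold change 0.26 ± 0.07, adjusted p = 0.00167 in edgeR).

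Among markers of liver cell types other than hepatocytes, 38.89% of the stellate cell and matrix list were called, against 36.3% of all tested genes. In the other such lists the share was 0% to 22.22%. Of 18 Kupffer cell and macrophage markers 3 rose and none fell (5 and 0 on the TPM scale), between 1 and 5 rose when each mouse was left out in turn, and the summed level was 149 to 313 CPM in OTC and 168 to 312 CPM in WT. C1qc, a complement subunit of macrophages, lay at 10.9 to 20.1 CPM (median 14.8) in WT and 14.8 to 25 CPM (median 19.3) in OTC (log2 fold change 0.38 ± 0.12, adjusted p = 0.0122 in edgeR). Gpnmb, a marker of lipid-laden macrophages, was called through mouse 38, which held 16.2 CPM against at most 1.82 CPM in the other OTC livers. Without mouse 38 its log2 fold change went from 3.35 to 1.43 and was not called (adjusted p = 0.107). Of 18 stellate cell and matrix markers 6 fell and 1 rose, or 3 and 1 without OTC mice 3 and 67 and likewise without WT mouse 7, with sums of 347 to 485 CPM in OTC and 366 to 528 CPM in WT. Col14a1, a collagen of fibrils, lay at 38.5 to 58.9 CPM (median 48.6) in WT and 13 to 47.4 CPM (median 27.5) in OTC (log2 fold change −0.72 ± 0.13, adjusted p = 1.26e-05 in edgeR), and Col3a1 at 16.4 to 43 CPM (median 23.5) and 3.19 to 31.1 CPM (median 10.6) (log2 fold change −1.04 ± 0.25, adjusted p = 0.001). Of 18 endothelial markers 3 fell and 1 rose, and the receptor Tie1 lay at 9.58 to 13.7 CPM (median 10.4) in WT and 7.42 to 9.49 CPM (median 8.54) in OTC (log2 fold change −0.37 ± 0.09, adjusted p = 0.00149 in edgeR). None of 14 tested lymphocyte and granulocyte markers was called in edgeR (1 at an unadjusted p under 0.05), with sums of 4.76 to 12.4 CPM in OTC and 7.46 to 15.3 CPM in WT, and 6 others of that list had too few counts to be tested. Of 8 bile duct markers 1 rose. No marker in these lists was at 0 in all 18 livers. Alas2, the haem synthesis enzyme of red cell precursors, fell from 69.6 to 164 CPM (median 122) in WT to 3.51 to 37.2 CPM (median 20.6) in OTC (log2 fold change −2.51 ± 0.30, adjusted p = 7.01e-09 in edgeR), and 2 of 9 erythroid markers fell in all. Among hepatocyte markers 4 of 9 rose and 2 fell (66.67% called, against 36.3% of all tested genes). Apob, the main protein of liver lipoproteins, was 1 of those that fell. It lay at 6872 to 9356 CPM in WT and 5711 to 6747 CPM in OTC, with every OTC liver below every WT liver. Hnf4a, the transcription factor of hepatocyte identity, lay at 423 to 554 CPM (median 510.2) in WT and 552 to 1105 CPM (median 616) in OTC (log2 fold change 0.42 ± 0.08, adjusted p = 0.000117 in edgeR), with mouse 3 highest. The part of cell makeup in the other differences was not tested.

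With all 18 livers, the spread between mice was larger in OTC for most genes. Over the 8185 genes whose mean was 3 log2 CPM or more, the SD of the log2 level was larger in OTC for 5366 (65.56%), with a median SD of 0.198 in OTC and 0.162 in WT. Without OTC mice 3 and 67 and WT mouse 13 it was larger in OTC for 3356 (41%), with medians of 0.144 and 0.161. Which WT mouse is left out decides this: without OTC mice 3 and 67 and WT mouse 7, the WT library farthest from its group, the SD was larger in OTC for 4373 (53.43%), and without WT mice 7 and 13 for 4538 (55.44%). Genes with a large excess of SD in OTC included Car3, Sult1e1, Cyp4a12a and Elovl3. Car3, a carbonic anhydrase of hepatocytes, lay at 1861 to 4414 CPM (median 3379) in WT. In OTC it was at 4.05 CPM in mouse 3, 38.8 in mouse 67, 258 in mouse 35, 443 in the unnumbered mouse, 1268 in mouse 46, 1773 in mouse 43, 1899 in mouse 38 and 2143 in mouse 72. Only mice 38 and 72 were inside the WT range (log2 fold change −1.70 ± 0.57, adjusted p = 0.0171 in edgeR, and 0.0695 with only the 18 compared libraries). Cyp4a12a, a fatty acid hydroxylase of male liver, was at 1.51 CPM in mouse 3 and 292 CPM in mouse 72, against 343 to 886 CPM (median 656) in WT (log2 fold change −3.05 ± 0.74, adjusted p = 0.000948 in edgeR), or −3.74 without mouse 72. Elovl3, a fatty acid elongase, was at 0.27 CPM in mouse 3 and 129 CPM in mouse 38, the only one inside the WT range, against 118 to 807 CPM (median 407) in WT (log2 fold change −3.49 ± 0.90, adjusted p = 0.00192 in edgeR). Sult1e1, an oestrogen sulfotransferase, was at 152 CPM in mouse 3, 11.3 CPM in mouse 67 and at most 2.5 CPM in the other 6. Its log2 fold change of 6.15 was 2.81 without mouse 3, and 1.10 without mice 3 and 67, where it was not called (adjusted p = 0.468). The map of levels by mouse shows Car3, Elovl3 and Cyp4a12a beside Otc, F11, Rpl3 and Irf7. Otc, F11, Rpl3 and Irf7 were outside the WT range in all 8 OTC mice. So was Cyp4a12a, though its level was uneven among them.

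**Figure D4:**
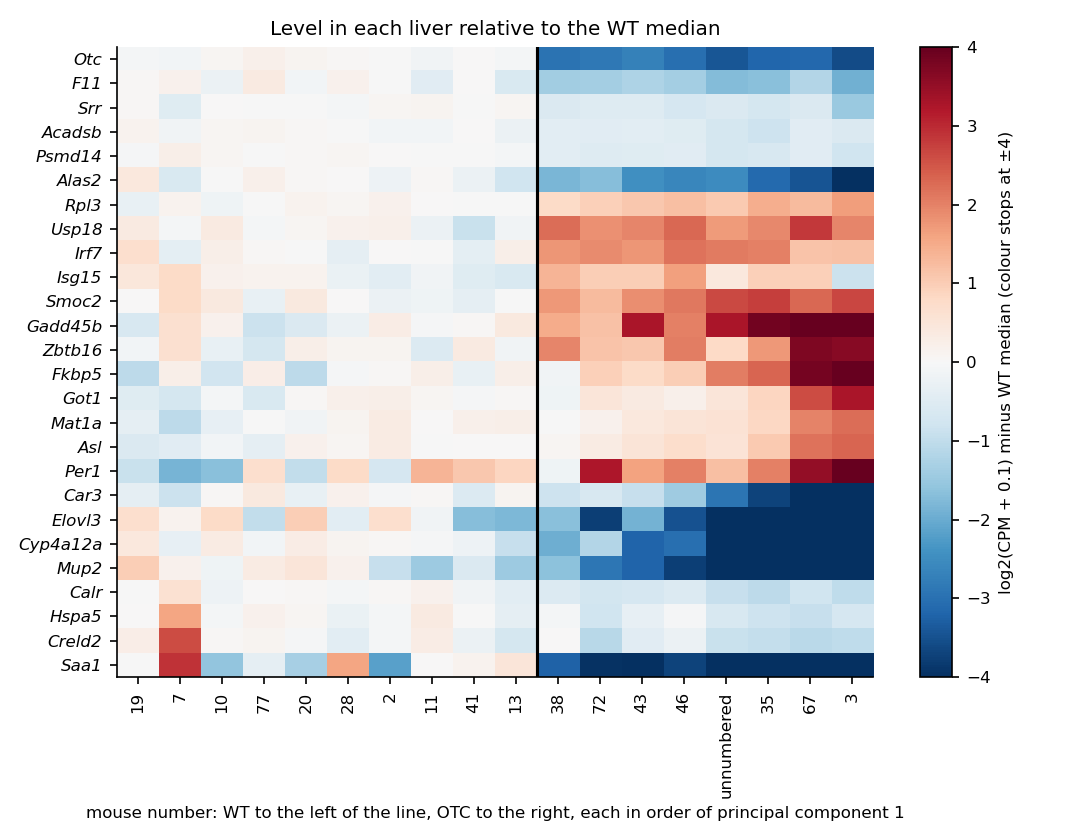
Level of 26 genes (rows) in each of 18 livers (columns, mouse numbers, WT left and OTC right of the line, each ordered by principal component 1), as log2(CPM + 0.1) minus the WT median, with red above and blue below it. Otc, F11 and Alas2 are blue and Rpl3, Usp18 and Irf7 red in all 8 OTC columns, while Fkbp5, Got1, Mat1a and Asl are darkest red in mice 67 and 3.

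Other genes had a larger spread in WT, among them Dbp, Cyp46a1 and Selenbp2. Cyp46a1, a cholesterol hydroxylase, was at 1.06 CPM in WT mouse 7 and 50.3 to 164 CPM in the other 9, and it lay at 60 to 168 CPM (median 96.9) in OTC and was not called. Selenbp2, a selenium-binding protein, ran from 7.4 CPM in WT mouse 13 to 859.96 CPM in WT mouse 7, against 16 to 98.1 CPM (median 43.1) in OTC (log2 fold change −2.95 ± 0.68, adjusted p = 0.000604 in edgeR).

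The same contrast was available in the mice given the other 2 vectors. These comparisons share no library with the one above, but their mice also carry a hairpin against an enzyme of glutamine or glutamate breakdown. Under sh-Gls2, 1935 genes were higher in OTC (14.5%) and 1989 lower (14.9%). Of these, 1289 and 1332 were also called in that direction under the control vector, which is 66.6% and 67% of the sh-Gls2 lists and 48.6% and 61.1% of the control lists. Under sh-Glud1, 2650 were higher (19.9%) and 2013 lower (15.1%), of which 1950 and 1516 were shared, 73.6% and 75.3% of the sh-Glud1 lists and 73.6% and 69.5% of the control lists. Genes called in opposite directions numbered 4 under sh-Gls2 and 0 under sh-Glud1. In all 3 vector groups 1084 genes were higher and 1059 lower. Across the 13311 genes the log2 fold changes correlated with those under the control vector with Pearson's r of 0.785 for sh-Gls2 and 0.856 for sh-Glud1, where genes are not independent replicates. Otc was low in those OTC mice as well, with log2 fold changes of −2.82 ± 0.08 under sh-Gls2 and −3.27 ± 0.09 under sh-Glud1. The log2 fold changes of F11 were −1.61 ± 0.12 and −1.27 ± 0.13, and those of Alas2 −2.57 ± 0.28 and −2.56 ± 0.30. Of the 23 endoplasmic reticulum chaperones 12 were lower and 1 higher under sh-Gls2, and 6 lower and 1 higher under sh-Glud1. Of the 40 interferon-stimulated genes 15 were higher and 1 lower under sh-Gls2, and 28 higher and 0 lower under sh-Glud1. Of the 47 ribosomal protein genes 4 were higher and 4 lower under sh-Gls2, with a median of 0.035. Under sh-Glud1, 26 of them were higher and 3 lower. Of the 20 genes of branched-chain amino acid and lysine breakdown 14 were lower under sh-Gls2 and 16 under sh-Glud1, and 0 were higher under either. These counts were not tested against each other.

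Gene by gene, the test of the difference itself called 45 genes between sh-Gls2 and control (0.338%; 16 with a higher OTC minus WT difference, 0.12%, and 29 with a lower one, 0.218%), and 1496 at an unadjusted p under 0.05. Between sh-Glud1 and control it called none in edgeR (0%), with 417 at an unadjusted p under 0.05, and DESeq2 and limma called none. Without OTC mice 3 and 67, 10 genes were called between sh-Gls2 and control, 9 of them among the 45. For 21 of the 45 the fold change had opposite signs under the 2 vectors. Rpl3 was higher in OTC by 1.19 ± 0.09 under control and 0.54 ± 0.08 under sh-Gls2 (difference −0.66 ± 0.12, edgeR adjusted p = 0.00505). Ces2c, a carboxylesterase, lay at 29 to 78.3 CPM (median 43.8) in WT and 1.08 to 16.7 CPM (median 7.04) in OTC with the control vector. Its log2 fold change was −2.61 ± 0.28 under control and −0.51 ± 0.23 under sh-Gls2 (difference 2.09 ± 0.36, adjusted p = 0.00374 in edgeR). Slc13a3, a carrier of dicarboxylates, differed by −1.27 ± 0.21 under control and 0.17 ± 0.18 under sh-Gls2 (difference 1.44 ± 0.27, adjusted p = 0.00508 in edgeR). Cyp2a12 differed by −0.47 ± 0.09 and 0.19 ± 0.08 (0.66 ± 0.12, adjusted p = 0.00508 in edgeR). Pfn2, a profilin of the actin skeleton, and Nlrp6, an innate immune sensor, were higher in OTC under control and lower under sh-Gls2. Pfn2 went from 0.72 ± 0.18 to −0.60 ± 0.15 (adjusted p of the difference 0.00379 in edgeR), and Nlrp6 from 0.31 ± 0.08 to −0.32 ± 0.08 (adjusted p 0.00508). These 6 genes were also called without OTC mice 3 and 67. For Cyp2c40 the difference rested on WT mouse 13, which held 182 CPM against at most 0.849 CPM in the other WT livers.

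**Figure D5:**
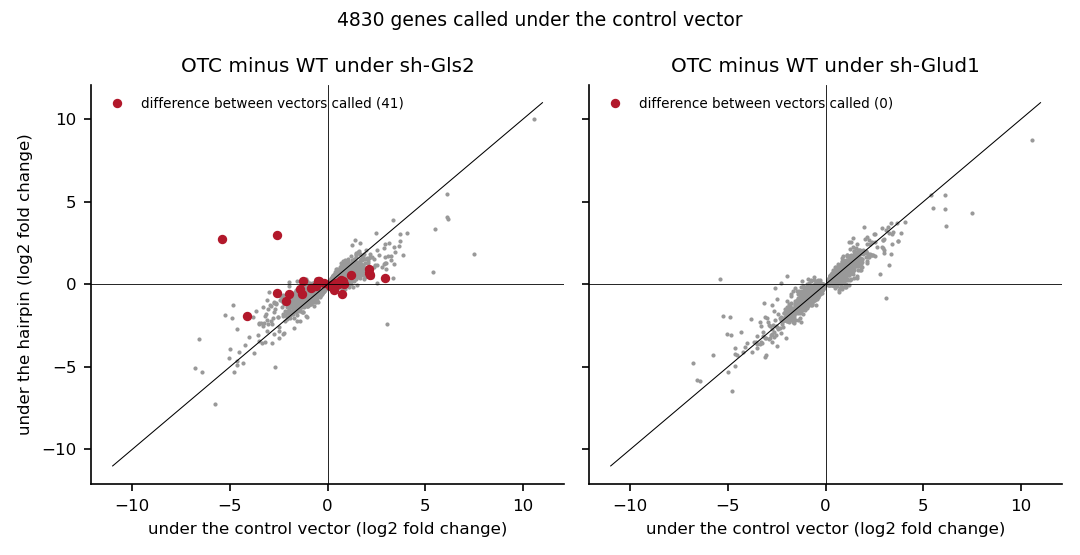
Log2 fold change, OTC minus WT, under sh-Gls2 (left) and sh-Glud1 (right) on the y axes against that under the control vector on the x axes, for the 4830 genes called under the control vector; the diagonal marks equal values and red points genes whose difference between vectors was called. The left panel has 41 red points and the right panel none; the genes were chosen by their values on the x axis.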

How the data were processed

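Strand-specific mRNA libraries were made from total liver RNA with 12 PCR cycles, per the labels' protocols. The authors deposited whole-number read counts per gene symbol, not normalized, and TPM values, which are scaled for gene length and library size. The submitters' processing notes name CASAVA 1.8.2, FastQC and GRCm38. Which aligner, counter and annotation were used is not given in the sources used here.

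Counts were tested with edgeR 4.0.16 in R 4.3.3: filterByExpr (minimum count 10, minimum total 15) kept 13311 of 24475 symbols, TMM factors lay between 0.924 and 1.12, and quasi-likelihood F tests came from 1 model of all 55 libraries, in which each of 6 groups had its own mean. All tests were two-sided, and a call is a Benjamini-Hochberg adjusted p below 0.05 over all tested genes. The SE is the log2 fold change divided by the square root of F. On simulated counts for this comparison with 13311 genes, the fit recovered 85 of 100 genes changed 1.5-fold and 98 of 100 changed 2-fold, with 8 false calls among 191. No other gene was changed there, and the changed genes had a mean above 1 log2 CPM. All simulated OTC mice shared the same expected level, and the spread was that of the fit. With far more genes called and uneven OTC mice in the data, these rates need not hold for them. Alternatives were DESeq2 1.42.0, limma 3.58.1 on log2(TPM + 1) and log2(TPM + 0.1), other filters and scaling, only the compared groups, and each library left out. The comparison, its members and the 39 gene lists were chosen with earlier results of these data known, and lists are described by counts with no test. Most genes with values come from a fixed rule. It took the urea cycle list and the 10 highest and lowest fold changes. The latter had ranges that did not overlap and a mean of at least 1 log2 CPM. Up to 3 called genes per list with the smallest adjusted p were added. For the spread, the rule took the 5 largest and 5 smallest differences in SD, OTC minus WT. The rest were the 5 smallest p-values in each direction between vectors, and 5 neighbours on each side of Otc. Predicted and accession-like symbols were also left out for the spread and between vectors. Lists were matched by symbol, with 13 mitochondrial genes taken from RefSeq. Gene positions are from GENCODE M21 on GRCm38, which placed 12754 of the 13311 genes. Results for a few genes selected by the rule are not reported here.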

Additional observations from a re-analysis of the deposited data

Results flagged for a closer look

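In the 111 named genes, each group's log2 levels were checked for a mouse apart from the rest of its group. Chance flags about 1 in 20 groups of unselected, independent values. The genes here were mostly chosen by their values in these data and share the same mice, so that rate need not hold. Of the 222 groups, 21 were flagged. Of these, 10 were WT mouse 7. It held the most of Hspa5 (2275 CPM against 593 to 967 in the other WT livers), Hsp90b1 (1856 against 707 to 949), Creld2 (135 against 13.6 to 26.8) and Pdia3 (743 against 368 to 499.7). It held the least of Shmt2 (145 against 179.7 to 213), Srr (95.6 against 128 to 144), Mat1a (1557 against 2478 to 3968), Slc6a9 (12.6 against 17.2 to 23.4), Gstm1 (652 against 989.8 to 1526) and Cyp46a1 (1.06 against 50.3 to 164).

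OTC mouse 3 stood apart for Shmt2 (81.8 CPM against 127.6 to 138 in the other OTC livers), Srr (48.3 against 82.5 to 95.1), Saa4 (57.4 against 138 to 176), Cpt2 (51.8 against 86.01 to 111), Cyp2j5 (156 against 302 to 488), Pcna (27.5 against 20.7 to 23.4) and Hnf4a (1105 against 552 to 656). OTC mouse 67 stood apart for Slc25a13 (319 CPM against 179 to 231) and Kmo (249 against 147 to 188). WT mouse 41 was lowest for Usp18 (2.05 CPM against 3.26 to 5.02), and WT mouse 13 held 182 CPM of Cyp2c40 against 0 to 0.849.

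The OTC minus WT difference itself differed between sh-Gls2 and control for 14 of these genes in edgeR. On the log2 scale the change in that difference was −1.47 ± 0.30 for Usp18 (adjusted p = 0.0129), −1.21 ± 0.29 for Sept6 (0.0408), −0.87 ± 0.21 for Hspa8 (0.0418), −0.51 ± 0.11 for Cyp2d22 (0.0249), −0.66 ± 0.12 for Rpl3, −1.32 ± 0.23 for Pfn2 and −0.63 ± 0.12 for Nlrp6. It was 2.23 ± 0.53 for Slc22a7 (adjusted p = 0.0408), 1.17 ± 0.26 for Rhbg (0.0249), 1.11 ± 0.24 for E2f1 (0.0234), 2.09 ± 0.36 for Ces2c, 1.44 ± 0.27 for Slc13a3, 0.66 ± 0.12 for Cyp2a12 and 8.19 ± 1.70 for Cyp2c40 (0.0148). Without OTC mice 3 and 67 the calls of Usp18 (−1.34, adjusted p = 0.0566), Sept6 (−1.21, 0.0703), Hspa8 (−0.79, 0.109), Cyp2d22 (−0.36, 0.121), Slc22a7 (1.98, 0.121), Rhbg (1.13, 0.0612) and E2f1 (0.87, 0.0612) were lost.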

How the results depend on the processing

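Leaving out each control-vector library in turn gave 2001 to 2643 genes higher and 2000 to 2313 lower in OTC, the fewest of both without mouse 3. With only the compared groups in the fit there were fewer still, 1897 higher and 1727 lower of 12638 tested. On TPM, 1129 genes (log2(TPM + 1)) or 1135 (log2(TPM + 0.1)) were lower, and with every gene above 0 there were 4021 higher and 1129 lower. Under sh-Gls2 these 3 settings gave 4247, 4193 and 4724 higher and 749, 741 and 809 lower, and under sh-Glud1 4862, 4855 and 5072 higher and 822, 831 and 884 lower. The difference between sh-Gls2 and control was called higher and lower for 10 and 14 genes with no filter, 32 and 52 in DESeq2, 7 and 12 with only the compared groups, 8 and 13 on log2(TPM + 1), 9 and 14 on log2(TPM + 0.1), 15 lower with every gene above 0, 5 and 5 without OTC mice 3 and 67, and 5 and 7 also without WT mouse 13. Leaving out the unnumbered OTC mouse gave 16 and 22 there, and 0 for sh-Glud1. Cyp2c40 went from −5.42 to 0.23 without WT mouse 13 and to 0.29 in DESeq2. It was −6.52 without OTC mouse 67 and −6.67 without OTC mice 3 and 67. Giving the lists without WT mouse 7 on their own, and the SDs without 3 or 4 mice, were choices made after seeing the data. No paired analysis was possible because the groups share no mouse numbers. Of 39 list medians, those of 12 changed sign on TPM or without OTC mice 3 and 67, none of them larger in size than 0.15 with all mice on the count scale. With 8 and 10 mice, a p above the threshold does not show equal levels.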
